A study of Mus musculus with 8 samples.

Results

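The 8 genes described here encode the machinery of peroxisomal β-oxidation that completes docosahexaenoic acid (DHA) synthesis. They are the acyl-CoA transporters *Abcd2* and *Abcd3*, the bifunctional enzymes *Ehhadh* and *Hsd17b4*, the thiolases *Acaa1a*, *Acaa1b* and *Scp2*, and the reductase *Decr2*. They were taken by name, and every non-control probe whose transcript accession maps to one of these symbols in RefSeq was used, which gave 9 probes, with 2 for *Acaa1a* and 1 for each other gene. They are 8 of 14065 named genes with a probe that could be tested in these livers. RNA from whole liver of 10-week-old male C57BL/6 mice was hybridised to Agilent one-colour (Cy3) arrays, 1 array per mouse, for 4 *Agpat3* wild-type (WT) and 4 *Agpat3* knockout (KO) mice, numbered 1 to 4 in each genotype. AGPAT3 is the acyltransferase that places DHA into lysophosphatidic acid on the way to DHA-containing phospholipids (DHA-PLs), and the KO mice lack it throughout the body, so a difference in the liver need not start in the liver. In bulk tissue, fewer cells of a type and less RNA per cell cannot be told apart.

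DHA is made by desaturation and elongation in the endoplasmic reticulum up to a precursor longer than DHA itself, and that precursor is then shortened in the peroxisome by a single round of β-oxidation. In that round the acyl-CoA crosses the peroxisomal membrane through ABCD transporters, is oxidised, is hydrated and dehydrogenated by a bifunctional enzyme, and is cleaved by a thiolase. Many genes of the pathway in rodent liver are targets of the fatty acid receptor PPARα, and the desaturases and elongases that precede it are controlled by both SREBP1 and PPARα. The comparison asked whether the peroxisomal genes differed between *Agpat3* WT and KO liver, as the earlier enzymes do.

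The arrays were alike in quality. Between 29885 and 31886 probes per array were well above background, the 75th percentile of signal was 261 to 309 intensity units, and the array-to-array correlation of log2 signals was 0.985 to 0.996. All 8 arrays shared a slide, with WT in row 1 and KO in row 2, so slide row and genotype cannot be told apart. *Agpat3* itself separated the genotypes as labelled, from 5.65 to 5.88 in WT to -0.58 to 0.02 in KO at its brighter probe. These and all levels given here are log2 signals relative to the 75th percentile of the same array, so they can be compared between mice for a gene but not between genes. The 10 hepatocyte markers were all tested and 0 differed by the criteria given next, with a summed linear level of 7688 to 8518 in WT and 7709 to 8081 in KO.

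A gene was called where its fold change was over 1.5 and its limma adjusted p was under 0.2. By this rule 1 of the 8 genes was higher in *Agpat3* KO liver, *Abcd2*, against 1.01% of all tested genes, and 0 were lower, against 0.754%. In the same limma fit 3 of the 8 had an unadjusted p under 0.05, all higher in KO (*Abcd2*, *Acaa1b* and *Ehhadh*), against 14% of all tested genes in either direction, and 0 were lower. An unpaired t test with the same thresholds on unadjusted p also called *Abcd2* (1.86% of all tested genes higher) and 0 genes lower (1.53%). The other 7 genes were well above background on all 8 arrays, and their KO minus WT differences lay between -0.10 and 0.34 on the log2 scale. The median difference was 0.13 over the 8 genes and 0.06 without *Abcd2*, beside -0.03 over all tested genes. For 6 of the 8 the 95% interval of the difference lay within 1.5-fold either way, as it did for 76.2% of tested genes.

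**Figure D1:**
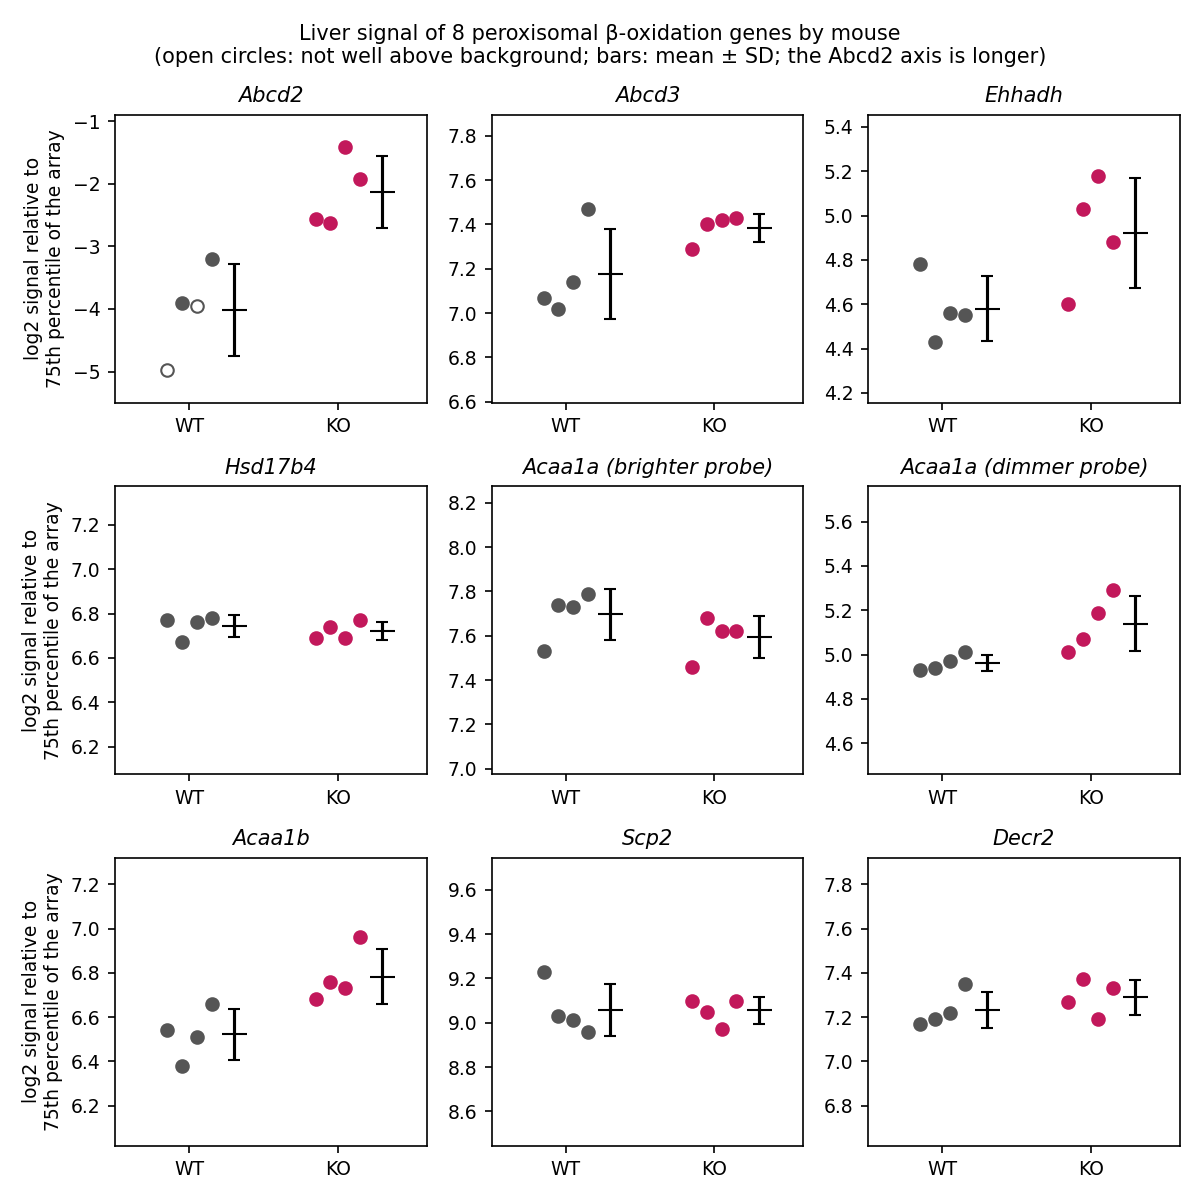
Log2 signal of each gene in each mouse, relative to the array's 75th percentile (1 point per mouse, n = 4 per genotype, bars mean ± SD, open circles not well above background, a longer scale for *Abcd2*). *Abcd2* is separated by 1.88 on average and *Acaa1b* by 0.26, without overlap, while *Hsd17b4*, *Scp2* and *Decr2* overlap.

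*Abcd2* encodes a transporter that brings very-long-chain and polyunsaturated acyl-CoAs into the peroxisome. Its log2 signals were -4.98, -3.91, -3.96 and -3.20 in WT and -2.57, -2.63, -1.42 and -1.92 in KO, so every KO mouse was above every WT mouse. The difference was 1.88 (SE 0.40, 95% interval 0.96 to 2.79), with a limma adjusted p of 0.106 and an exact permutation p of 0.0286, the smallest that 4 mice against 4 can give. The signal was near the floor in WT, where it was well above background in mice 2 and 4 but not in mice 1 and 3, whereas all 4 KO mice were well above background. It therefore entered the test through the KO mice alone, and the size of the difference depends on the floor in WT. The call was lost with normexp background correction (difference 0.58, adjusted p 0.132), without the filter on dim probes (adjusted p 0.252), and without WT mouse 2 (1.91, adjusted p 0.207) or WT mouse 3 (1.90, adjusted p 0.239). The normexp correction added 50 to every signal, beside processed *Abcd2* intensities of 8.96 to 28.5 in WT and 44.8 to 110 in KO. Such an offset shrinks fold changes at dim probes. The normexp difference of 0.583 fell just under the fold threshold of 0.585.

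*Abcd2* is also abundant in fat. Of the 5 adipocyte markers, *Adipoq* and *Plin1* were not well above background on any array, 2 markers could be tested and 0 of those were called. The summed linear level, which came mostly from 1 of those 2, was 4.80 to 6.90 in WT and 5.31 to 6.35 in KO. The summed level of the 10 Kupffer cell and leukocyte markers also overlapped, at 66.1 to 93.4 in WT and 55.1 to 87.2 in KO, although 1 of the 9 tested, *Marco*, a macrophage scavenger receptor, fell by 1.22 (adjusted p 0.098). The part of fat cells or of *Marco*-expressing cells in the *Abcd2* difference was not tested. *Abcd3* encodes the abundant PMP70 transporter of branched-chain and long-chain acyl-CoAs. It gave 7.07, 7.02, 7.14 and 7.47 in WT and 7.29, 7.40, 7.42 and 7.43 in KO, a difference of 0.21 (SE 0.10, 95% interval -0.03 to 0.45, adjusted p 0.434). WT mouse 4 was above all KO mice, so the groups overlapped.

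*Ehhadh* encodes the L-bifunctional protein, which hydrates and dehydrogenates acyl-CoAs, with a preference for dicarboxylic chains, and is a classical PPARα target. It was 4.78, 4.43, 4.56 and 4.55 in WT and 4.60, 5.03, 5.18 and 4.88 in KO. The difference of 0.34 (SE 0.13, 95% interval 0.04 to 0.65, 1.27-fold) had an adjusted p of 0.319, and KO mouse 1 lay within the WT range. *Hsd17b4* encodes the D-bifunctional protein, which carries out the same reactions in the shortening of the DHA precursor. It was 6.77, 6.67, 6.76 and 6.78 in WT and 6.69, 6.74, 6.69 and 6.77 in KO, with overlapping groups. This was the tightest measurement of the 8, with a difference of -0.02 (SE 0.06, 95% interval -0.16 to 0.12, adjusted p 0.908).

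The thiolases cleave the shortened chain from acetyl-CoA. Mouse has *Acaa1a* and *Acaa1b*, both on chromosome 9, which encode closely related 3-ketoacyl-CoA thiolases, and *Scp2*, which encodes the thiolase SCPx and, from a shorter transcript, sterol carrier protein 2. The genotype difference had opposite signs at the brighter *Acaa1a* probe and at *Acaa1b*, and their promoters, with that of *Ehhadh*, are shown here because these 3 genes enter the comparisons of enzymes of the same role. The sequences are RefSeq windows of 300 bases on GRCm38.p6, 5′ to 3′ on the strand of the gene, from 250 bases before the transcript start. They lie at chr9:119341044-119341343 on the plus strand (*Acaa1a*), chr9:119157044-119157343 on the minus strand (*Acaa1b*) and chr16:21787785-21788084 on the minus strand (*Ehhadh*). Capitals mark matches, on either strand, to the CCAAT box (CCAAT, or ATTGG as its reverse) and to the core of the sterol regulatory element (TCACNCCAC, or GTGGNGTGA as its reverse).
Acaa1a: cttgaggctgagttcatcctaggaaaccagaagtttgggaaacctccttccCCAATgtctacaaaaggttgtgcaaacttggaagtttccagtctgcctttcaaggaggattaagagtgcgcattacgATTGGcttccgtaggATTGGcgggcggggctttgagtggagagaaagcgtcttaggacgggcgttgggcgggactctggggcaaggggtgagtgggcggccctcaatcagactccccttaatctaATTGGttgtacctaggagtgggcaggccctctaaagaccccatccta
Acaa1b: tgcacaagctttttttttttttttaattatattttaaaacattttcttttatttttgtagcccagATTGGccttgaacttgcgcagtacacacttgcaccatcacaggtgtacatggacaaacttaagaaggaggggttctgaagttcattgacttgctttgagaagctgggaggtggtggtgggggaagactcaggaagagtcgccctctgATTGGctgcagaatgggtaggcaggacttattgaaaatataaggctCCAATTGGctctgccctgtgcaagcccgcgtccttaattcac
Ehhadh: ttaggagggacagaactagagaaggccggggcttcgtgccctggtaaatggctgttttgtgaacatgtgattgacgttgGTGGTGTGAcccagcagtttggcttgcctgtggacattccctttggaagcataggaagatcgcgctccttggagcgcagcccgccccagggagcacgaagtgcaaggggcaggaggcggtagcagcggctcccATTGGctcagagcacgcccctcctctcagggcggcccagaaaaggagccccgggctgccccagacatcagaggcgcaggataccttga
The *Acaa1a* and *Acaa1b* windows each held 4 CCAAT matches, of which 2 in *Acaa1b* overlap each other, and the *Ehhadh* window held 1. Such a match was present in 3 of the 7 windows searched for 6 of the genes, the 3 shown here, and in 37.4% of 32851 RefSeq promoters of this length. No window of *Abcd2* or *Hsd17b4* was searched. The windows of *Abcd3*, which enters the comparison of transporters, held no CCAAT match and are not shown. The sterol regulatory element core was found in *Ehhadh*, 171 bases before the start, and in 1.24% of all promoters. The direct repeat read by PPARα (AGGTCA, then 1 base, then AGGTCA) was in 0 of the 7 windows searched and in 0.0396% of all promoters. Its single element AGGTCA was in *Scp2* and in 16.3% of all promoters. These are letter matches in a short window, and binding was not measured.

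*Acaa1b* was 6.54, 6.38, 6.51 and 6.66 in WT and 6.68, 6.76, 6.73 and 6.96 in KO, so the 4 KO mice lay above the 4 WT mice, with WT mouse 4 and KO mouse 1 almost level. Every KO mouse was above every WT mouse in 2 of the 8 genes, *Acaa1b* and *Abcd2*, and in 3.84% of all tested genes. Every KO mouse was below every WT mouse in 0 of the 8, and in 5.89% of all tested genes. *Abcd2* entered the test through the KO mice alone, so its separation adds no support to this count. The *Acaa1b* difference was 0.26 (SE 0.09, 95% interval 0.06 to 0.46, 1.20-fold) with an adjusted p of 0.265 and an exact permutation p of 0.0286, and it was not called. The brighter *Acaa1a* probe gave 7.53, 7.74, 7.73 and 7.79 in WT and 7.46, 7.68, 7.62 and 7.62 in KO. The groups overlapped, and the difference was -0.10 (SE 0.08, 95% interval -0.29 to 0.09, adjusted p 0.656). The dimmer *Acaa1a* probe ran the other way, with 4.93 to 5.01 in WT and 5.01 to 5.29 in KO, with every KO mouse just above every WT mouse, and a difference of 0.18 (SE 0.08, limma adjusted p 0.373, exact permutation p 0.0286). As the 2 probes of the gene disagree in sign, no direction is given for *Acaa1a*, and whether transcripts of these close paralogs share a probe was not tested. *Scp2* was 9.23, 9.03, 9.01 and 8.96 in WT and 9.10, 9.05, 8.97 and 9.10 in KO, a difference of -0.00 (SE 0.08, 95% interval -0.18 to 0.18) with overlapping groups. *Decr2* encodes the peroxisomal 2,4-dienoyl-CoA reductase, which clears double bonds that would block the cycle. Its signals were 7.17, 7.19, 7.22 and 7.35 in WT and 7.27, 7.37, 7.19 and 7.33 in KO, again overlapping, with a difference of 0.06 (SE 0.07, 95% interval -0.11 to 0.22, adjusted p 0.795).

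Genes of the same role were next compared within each array, where a shift common to the array cancels. The level of such a difference depends on the probes, so it is the change between genotypes that was tested, in 3 pairs with exact permutation p-values adjusted over them. *Acaa1b* minus *Acaa1a* was -0.99, -1.36, -1.23 and -1.13 in WT and -0.78, -0.92, -0.89 and -0.67 in KO. The groups did not overlap, and the change was 0.36 (exact p 0.0286, adjusted p 0.0429). With the mean of both *Acaa1a* probes in place of the brighter, the change was 0.22. At the dimmer *Acaa1a* probe the pair was not tested. That probe was itself 0.18 higher in KO, beside 0.26 for *Acaa1b*. In KO mouse 3 *Acaa1b* was 6.73 and that probe 5.19, beside 6.66 and 5.01 in WT mouse 4, so the groups overlap there. Both the size of the change and the separation of the groups therefore depend on the probe used. *Abcd2* minus *Abcd3* changed by 1.66 (exact p 0.0286, adjusted p 0.0429), again without overlap, and by 0.39 with normexp (exact p 0.0286). This pair rests on the *Abcd2* signal, which was not well above background in WT mice 1 and 3. As *Abcd2* entered the test through the KO mice alone, the pair restates its difference and is no separate support for it. The adjusted p of *Acaa1b* minus *Acaa1a* is under 0.05 only because the *Abcd2* pair tied with it at the smallest exact p. *Ehhadh* minus *Hsd17b4* was -1.99, -2.24, -2.20 and -2.23 in WT and -2.09, -1.71, -1.51 and -1.89 in KO, with an overlap at KO mouse 1 and a change of 0.37 that did not pass (exact p and adjusted p both 0.0571).

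**Figure D2:**
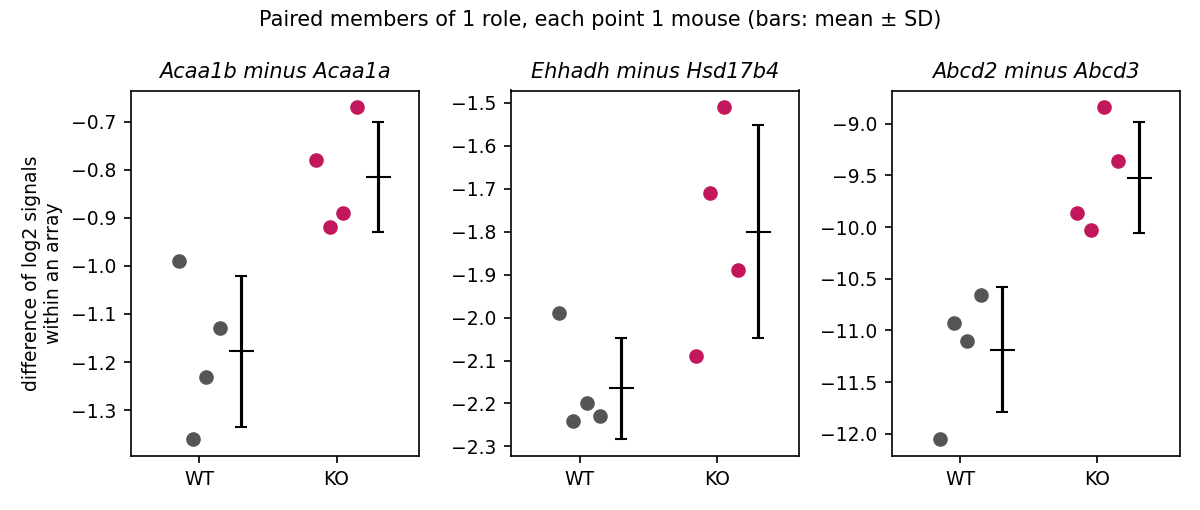
Within-array difference of log2 signals for the 3 pairs of genes with 1 role (1 point per mouse, n = 4 per genotype, bars mean ± SD, vertical scales differ and do not start at 0). KO and WT are apart for *Acaa1b* minus *Acaa1a* (change 0.36) and *Abcd2* minus *Abcd3* (1.66) and overlap for *Ehhadh* minus *Hsd17b4* (0.37). *Acaa1a* is read at its brighter probe, and at its dimmer probe, not plotted, the *Acaa1b* minus *Acaa1a* groups overlap. *Abcd2* was not well above background in WT mice 1 and 3.

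All 4 enzymes that make the DHA precursor were higher in KO in the same livers, and 3 of them were called. The desaturases *Fads1* and *Fads2* were 0.74 (adjusted p 0.0355) and 0.97 (adjusted p 0.0199) higher in KO, and the elongase *Elovl5* 1.02 higher (adjusted p 0.0355). *Elovl2*, the elongase directly before the peroxisomal step, was 0.53 higher, or 1.44-fold (adjusted p 0.0409), below the fold threshold. *Srebf1*, which encodes SREBP1, rose by 0.77 (adjusted p 0.168), and *Ppara* differed by -0.09 (adjusted p 0.845). The within-array difference of *Elovl2* from each peroxisomal gene was also compared between genotypes, a choice made after the values were seen, and 0 of the 8 pairs passed after adjustment over them. *Elovl2* minus *Hsd17b4* differed by 0.55, minus *Acaa1a* (brighter probe) by 0.63, minus *Scp2* by 0.53 and minus *Decr2* by 0.48, without overlap between the genotypes (exact p 0.0286, adjusted p 0.0571 for each). All of the pairs share *Elovl2*, itself higher in every KO mouse, and these subtract genes that differed by only -0.10 to 0.06. They therefore largely restate the *Elovl2* difference and are no separate results. Each of these had the smallest exact p that this number of mice can give. Not passing after adjustment therefore reflects the resolution of the test as well as the data. Against *Abcd3*, *Acaa1b* and *Ehhadh* the values were 0.32, 0.27 and 0.19 (adjusted exact p 0.0762, 0.131 and 0.229), with overlap. Against *Abcd2* it was -1.35 (adjusted exact p 0.0762), or -0.063 with normexp.

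The rest of the peroxisomal pathway was counted from a list of 26 further genes, of which 25 could be tested. Of these 0 were called higher and 0 lower, with a median difference of 0.01, while 4 were higher and 2 lower at an unadjusted limma p under 0.05 and the unadjusted t test called 1, *Acot3*. *Crot*, which makes carnitine esters of the shortened chains for export, was -0.33 in difference (SE 0.08, adjusted p 0.136), under the fold threshold. *Acot3*, a peroxisomal acyl-CoA thioesterase, was -1.80 to -0.76 in WT and -0.54 to 0.80 in KO, a difference of 1.29 (SE 0.38) whose adjusted p of 0.201 just missed the threshold. *Phyh*, which starts the α-oxidation of phytanic acid, differed by -0.20 (adjusted p 0.248).

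**Figure D3:**
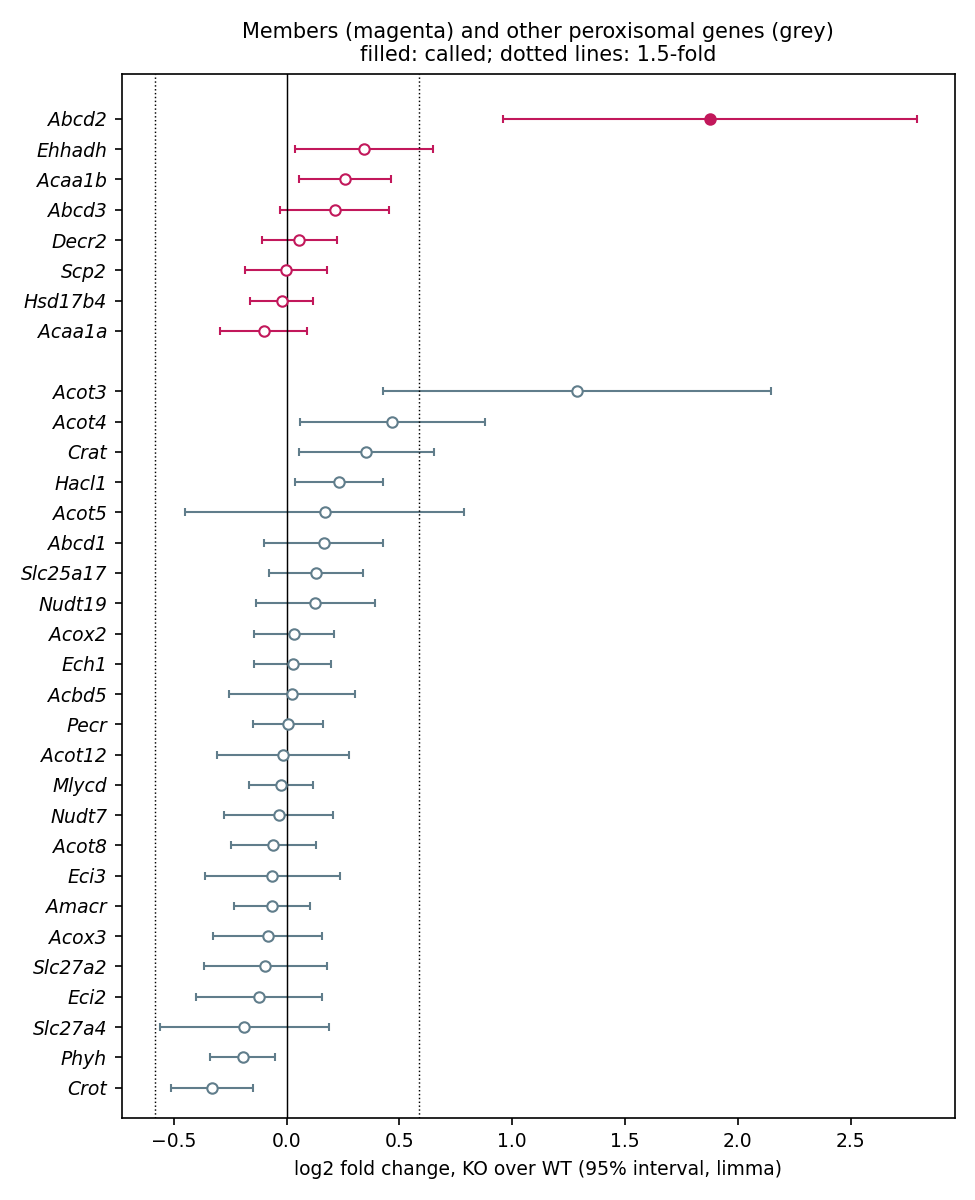
KO minus WT difference of log2 signal with its 95% interval from limma, for the 8 genes (magenta) and 24 of the further peroxisomal genes (grey), n = 4 mice per genotype, with filled circles for called genes and dotted lines at 1.5-fold. *Abcd2* at 1.88 is the filled circle, *Acot3* at 1.29 is open, and the intervals of most other genes lie between the dotted lines.

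Peroxisome biogenesis genes gave 0 calls among 24 tested (1 higher and 2 lower at an unadjusted limma p under 0.05, 0 by the t test), and each of the 24 had an interval within 1.5-fold either way. Their differences ran from -0.22 for *Pex11a* (adjusted p 0.331), a peroxisome division gene, to 0.20 for *Pex16*, and the import receptor *Pex5* differed by 0.15 (adjusted p 0.332). The 17 mitochondrial β-oxidation genes likewise gave 0 calls, 0 at an unadjusted limma p under 0.05 and 0 by the t test, with differences between -0.14 (*Cpt1a*) and 0.10 (*Slc25a20*). PPARα targets outside the pathway gave 0 calls among 24 tested, with 3 higher and 1 lower at an unadjusted limma p under 0.05 and 4 higher by the unadjusted t test (1.86% of all tested genes). Those 4, named here after their values were seen, were *Pdk4* and the fatty acid ω-hydroxylases *Cyp4a14* (1.17, the highest of the list, limma adjusted p 0.457), *Cyp4a10* (0.69) and *Cyp4a31* (0.64), close paralogs for which probe sharing was not tested. The median difference of the list was 0.01, with -0.34 for *Aqp7* (adjusted p 0.255), 0.73 for *Pdk4* (adjusted p 0.259) and 0.43 for *Acot2* (adjusted p 0.265).

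**Figure D4:**
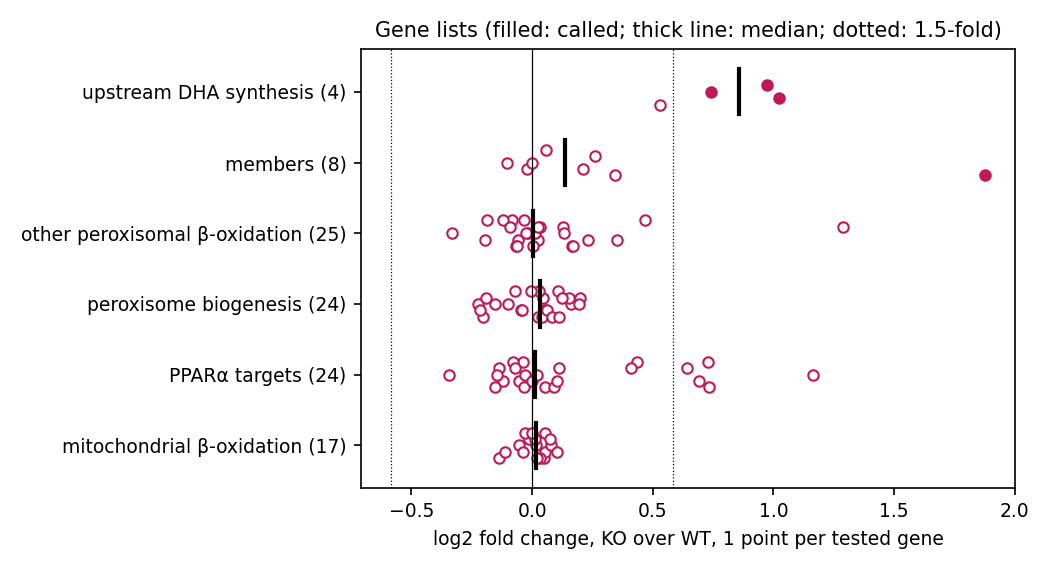
KO minus WT difference of log2 signal for every tested gene of each list (1 point per gene, n = 4 mice per genotype, filled circles called, thick lines medians, dotted lines 1.5-fold). The median is 0.86 for the upstream enzymes, 0.13 for the 8 genes (labelled members) and 0.01 for the other peroxisomal genes.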

How the data were processed

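Livers of 4 *Agpat3* WT and 4 *Agpat3* KO mice were each measured on 1 array, so p-values cover the spread between mice. The deposited scanner files hold intensities that the authors extracted with Agilent Feature Extraction 10.7.1.1 (processed signal, background subtracted by that program). The authors also deposited a table of normalised log2 values, used as an alternative, which differed from the recomputed values by at most 0.538. Here log2 processed signals were taken without outlier spots, spots of a probe were averaged, and the 75th percentile over 56605 non-control probes was subtracted per array. Testing was limited to 29067 probes, those marked well above background in all 4 WT or all 4 KO mice. They were fitted with limma 3.58.1 in R 4.3.3 (genotype as the term), with Benjamini-Hochberg adjustment over all of them and calls at fold change over 1.5 and adjusted p under 0.2. The study's legend states these values without saying whether p was adjusted. Probes were named through RefSeq (GRCm38.p6) by transcript accession (32994 probes), and each gene was read at its brightest probe. Single comparisons used exact two-sided permutation over 70 assignments. The script was tested on simulated data. Array number limits precision.

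Genes named are the 8 members, any gene called in a list or else its 3 smallest adjusted p-values, *Ppara*, *Srebf1*, the upstream enzymes, and the 3 genes nearest to *Abcd2*. *Pex16*, *Cpt1a* and *Slc25a20* mark ranges, and 2 genes that the rule names are not reported here. Members and lists were chosen with earlier results of these data known. Of the remaining lists, 9 regulators gave 1 call (*Srebf1*), with 2 higher and 2 lower at an unadjusted limma p under 0.05 and 2 higher by the unadjusted t test. Cholangiocyte (3 tested), endothelial (6) and stellate (6) markers gave 0 calls. Each of these 3 marker lists had 1 gene at an unadjusted limma p under 0.05, and 1, 0 and 1 genes by the unadjusted t test. Summed levels of the marker lists were 5.50 to 9.73, 79.6 to 83.4 and 25.1 to 35.9 in WT and 5.61 to 8.15, 73.2 to 86.7 and 25.0 to 27.3 in KO. Alternatives covered background correction (normexp with an offset of 50), scaling, dim-probe filter, the deposited values, moderation, replicate block, thresholds, t test, probe choice and each array left out.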

Additional observations from a re-analysis of the deposited data

Results flagged for a closer look

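*Ehhadh* minus *Hsd17b4* in WT mouse 1 was -1.99, apart from -2.24 to -2.20 in the other WT mice, a gap that took 0.839 of the range of the group. It was the only such value in 24 groups of 4 mice examined, and chance gives about 1 in 20.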

How the results depend on the processing

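*Abcd2* stayed higher in KO under every alternative that tested it, but lost its call with normexp background correction (0.58) and without the dim-probe filter (1.88), and ranged from 1.55 to 2.15 with 1 array left out. Requiring signal on all 8 arrays removed it from the test. Calls among the 8 genes were therefore 0 with normexp, with no filter, with the all-array filter, at adjusted p under 0.05 and with the adjusted t test, 0 to 1 with 1 array left out (0 without WT mouse 2 or 3), and 1 under the other alternatives. *Acot3* was the 1 further peroxisomal gene called higher with normexp, quantile normalization, trended robust moderation, the replicate block, unadjusted limma p and the unadjusted t test, and 0 to 1 with 1 array left out (1 without WT mouse 4). *Crot* was the 1 called lower with no minimum fold.

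Small differences turned sign under quantile normalization for *Hsd17b4* (0.0038) and *Scp2* (0.089), and *Scp2* ranged from -0.035 to 0.056 with 1 array left out. *Acaa1a* was 0.037 with its probes averaged and 0.18 at the dimmer probe, a choice made after the data were seen. *Ehhadh* minus *Hsd17b4* reached 0.46 with an exact p of 0.0286 under normexp, and ranged from 0.27 to 0.46 with 1 array left out (exact p 0.0286 without KO mouse 1). *Acaa1b* minus *Acaa1a* ranged from 0.30 to 0.42, with an exact p of 0.0571 when any KO mouse was left out, and *Abcd2* minus *Abcd3* from 1.38 to 1.84, with 0.39 under normexp.

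Over all probes, 273 were called higher and 211 lower. The counts were 180 and 65 with normexp, 122 and 131 with no filter, 208 and 125 with the all-array filter, 82 and 35 at adjusted p under 0.05, 557 and 645 with no minimum fold, 534 and 451 on unadjusted limma p, 503 and 426 by the unadjusted t test, and 165 and 104 by the adjusted one. With 1 array left out they were 152 to 334 and 105 to 311. The cause of these changes was not tested.

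Replicate numbers, which also give the slide column, were not taken as pairing the mice, since the correlations of deviations were 0.33, 0.10 and 0.32 for numbers 1, 3 and 4 but -0.11 for number 2, whose WT mouse was nearest to KO mouse 3. A replicate block gave 327 probes higher and 265 lower and left *Abcd2* called (adjusted p 0.0890). Under it *Acaa1b* minus *Acaa1a* (0.36) and *Abcd2* minus *Abcd3* (1.66) each had an exact sign-flip p of 0.125, the smallest that 4 pairs allow.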

Other observations

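The genes whose signals over the 8 arrays ran closest to those of *Abcd2*, by mean absolute difference after centring each gene, were *Slc2a4* (0.221), *D130043K22Rik* (0.369) and *Slc35f2* (0.381), of 14057 genes searched. The choice used the KO and WT arrays together. The genotype differences and p-values of these genes therefore largely follow from it and are no separate result. *Slc2a4*, the insulin-responsive glucose transporter of fat and muscle, was -4.82 to -3.88 in WT and -2.99 to -1.81 in KO, a difference of 1.84 (adjusted p 0.0495 in limma). It too was dim, well above background in 1 WT mouse and in 4 KO mice, so it also entered the test through the KO mice alone. *D130043K22Rik* was 1.57 higher in KO (adjusted p 0.132) and was well above background on all arrays, whereas *Slc35f2*, 1.33 higher, did not pass (adjusted p 0.264).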
